A study of Mus musculus with 8 samples.

Results

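The 38 genes described here act in G2 and mitosis, the stages in which a cell that has copied its DNA prepares to divide and then divides. They were chosen by name for their role in the cell cycle, with earlier results of these data known, from the 56980 gene identifiers counted in the jejunal mucosa of male mice. All 38 passed the filter on low counts (at least 10 counts in at least 4 libraries), as did 15986 genes in all. The mucosa came from 4 FFA2 fl/fl mice, called floxed controls, and 4 Adipoq-F2-KO mice, which carry the same floxed FFA2 allele together with adiponectin-Cre. Cre driven by the adiponectin promoter acts in adipocytes, so by design FFA2, a receptor for short-chain fatty acids, was deleted in fat and not in the intestine that was sequenced. The study housed mice of both genotypes together from birth until 12 weeks of age. From 12 weeks of age every mouse was fed, for 2 weeks, a Western diet with 10% fructooligosaccharides, a fermentable fiber, under thermoneutral housing. The comparison asks how the jejunum of mice without adipocyte FFA2 differs from that of the floxed controls.

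Cyclin A and the B-type cyclins bind the kinase CDK1, and the active complex drives the cell into mitosis. Aurora and Polo-like kinases, kinesin motors and the kinetochore then attach and align the chromosomes, condensin and topoisomerase II shape them, and the anaphase-promoting complex (APC/C) ends mitosis by marking the B-type cyclins for destruction. Many of these genes share a promoter element called CHR (cell cycle genes homology region), bound by the MuvB complex, which works with B-Myb and FOXM1 when the genes are on and with pocket proteins, as the DREAM complex, when they are off. In the small intestine, dividing cells lie mainly in the crypts, where stem cells and their progeny renew the epithelium, while villus enterocytes no longer divide.

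Total counts ran from 6007654 to 21712776 per library, and 3 libraries, floxed 3, Adipoq-F2-KO 3 and Adipoq-F2-KO 4, held fewer than 10000000. Ffar2, the deleted gene, had raw counts of 12, 18, 2 and 11 in floxed 1 to 4. It had 13, 12, 6 and 3 in Adipoq-F2-KO 1 to 4, so the mucosa held little of it in either group, and a deletion confined to adipocytes cannot be checked in these libraries. Epithelial markers were high in every library, as the label of jejunal mucosa implies, and the summed normalized count of 10 epithelial genes (reads divided by the library's size factor) lay between 118003 and 152785 in every library. Floxed 3 stood apart by its smooth muscle markers, whose sum was 30479, against 3763 to 12412 in the other 7 libraries. The 3 libraries with fewer than 10000000 counts had more of the markers of some other tissues. In floxed 3, Adipoq-F2-KO 3 and Adipoq-F2-KO 4, adipocyte markers summed to 579, 266 and 205, against 10.1 to 19.0 in the rest. Endothelial markers summed to 220, 202 and 258, against 30.2 to 156. Low depth and these markers thus went together, in 1 floxed and 2 Adipoq-F2-KO libraries.

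Of the 38 genes, 37 had a higher level in the Adipoq-F2-KO mice by their fitted log2 fold change, and Kif4 alone had a lower one. Among all 15986 tested genes, 48.5% had a log2 fold change above 0. The median log2 fold change of the 38 genes was 0.24, against -0.01 for all tested genes, with a range from -0.06 to 0.69. The differences were small for single genes: 7 were higher at an unadjusted p below 0.05 (DESeq2), which is 18.4% of the 38, beside 1.65% of all tested genes. That count was 1 under epithelial scaling, 2 without floxed 2 or without Adipoq-F2-KO 1, and 4 with a replicate block. Of all tested genes, 0.407%, 1.83%, 1.23% and 1.61% were higher in those fits, in that order. None of the 38 was lower at that threshold, beside 1.38% of all tested genes in the first fit. None passed an adjusted p below 0.05 over all genes with DESeq2, a threshold met by 6 genes, or 0.0375% of those tested, and none did with edgeR, by which 7 of the 38 had an unadjusted p below 0.05. In 3 of the 38, Ccnb2, Racgap1 and Ncapg, every Adipoq-F2-KO library lay above every floxed library, which is 7.89% of them, beside 1.10% of all tested genes.

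Library by library, the 38 genes added up to 4046, 3727, 4504 and 4075 normalized counts in floxed 1 to 4. In Adipoq-F2-KO 1 to 4 they added up to 5205, 4589.8, 4751 and 4980.2. All 4 Adipoq-F2-KO sums lay above all 4 floxed sums, with means of 4881 ± 268 and 4088 ± 319 (SD, n = 4 each) and a ratio of 1.19. Adipoq-F2-KO 1 held 34 of the 38 genes above their floxed mean, Adipoq-F2-KO 2 held 31, Adipoq-F2-KO 3 held 24 and Adipoq-F2-KO 4 held 30. The floxed libraries held 21, 13, 18 and 21. The highest of the 8 libraries was an Adipoq-F2-KO library for 35 of the 38 genes. The pattern was thus spread over many genes. By the count of genes above the floxed mean it was weakest in Adipoq-F2-KO 3, whose 24 lay near the 21 of floxed 1 and of floxed 4. The sums rest most on Mki67, Smc4 and Top2a, with floxed means of 632, 451 and 435. In bulk tissue, more dividing cells and more of these transcripts per dividing cell cannot be told apart.

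**Figure D1:**
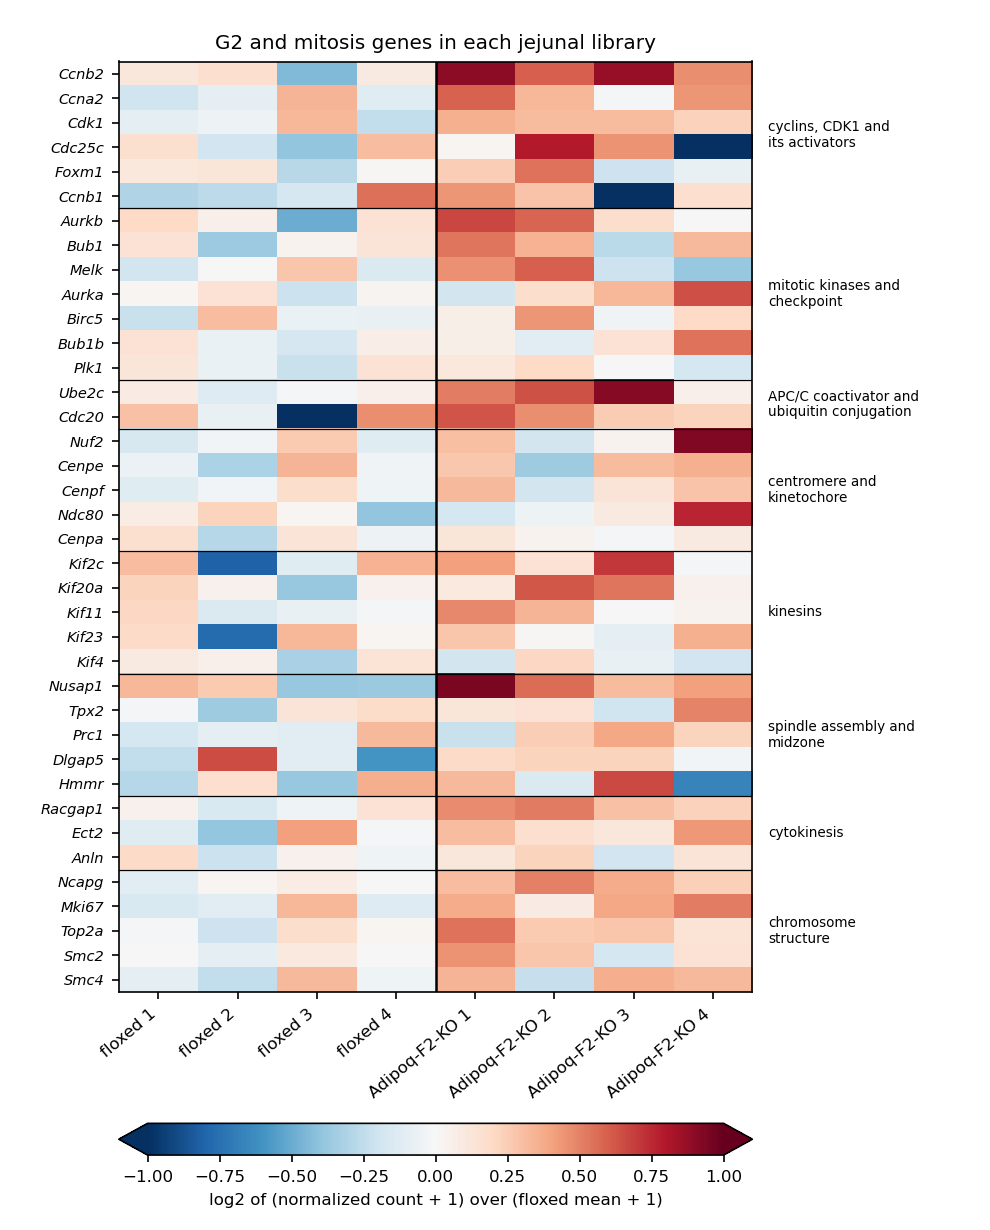
Level of each of the 38 genes (rows, grouped by role) in each library (columns), as log2 of the normalized count plus 1 over the floxed mean plus 1, with red above, blue below and colors stopping at -1 and 1. Adipoq-F2-KO 1 is above the floxed mean for 34 genes and Adipoq-F2-KO 3, the weakest, for 24.

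**Figure D2:**
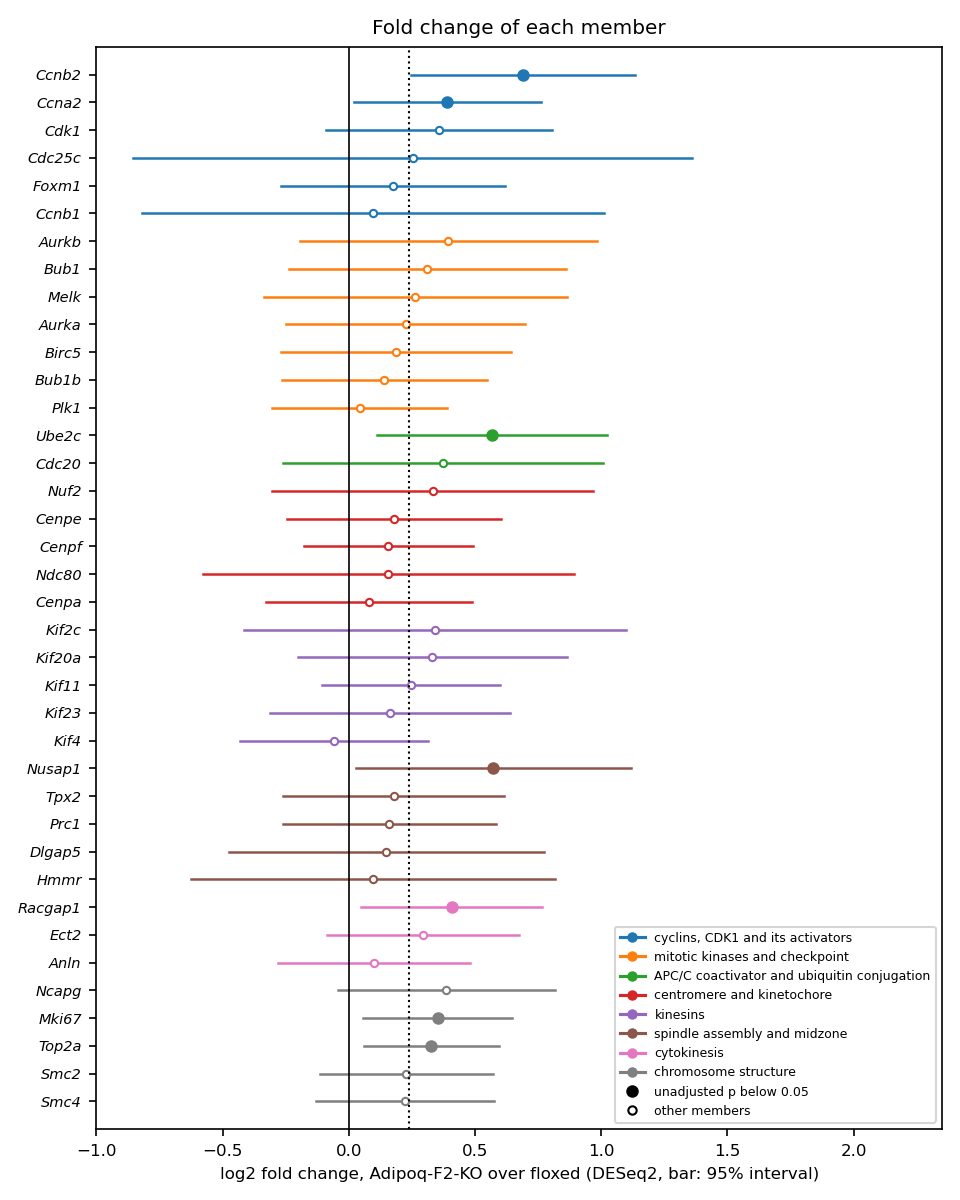
Log2 fold change of each gene, Adipoq-F2-KO over floxed, with its 95% interval (x axis), colored by role, with filled points for an unadjusted DESeq2 p below 0.05 and a dotted line at the median of the 38 genes, 0.24. The 7 filled points have intervals above 0, and the other 31 intervals cross it.

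Many of the genes share letters in their promoters, which played no part in choosing them. RefSeq promoter windows (GRCm38.p6), running from 250 bases before the gene start to 50 after it, were matched for 30 of the 38 genes. Those without a window were Ccna2, Cdc25c, Foxm1, Aurkb, Kif20a, Tpx2, Dlgap5 and Smc4. The letters of the CHR, searched on both strands as the word TTTGAA or the word TTCGAA, lay between 100 bases before and 50 after the start in 23 of the 30 (76.7%). Of all 27025 genes with a window, 9.87% held them there. The letters CCAAT, the core of the site bound by NF-Y, stood at least once in the windows of 23 of the 30 (76.7%), against 41.1% of all genes, and at least 2 times in 14 of the 30 (46.7%), against 13.3%. Both the CHR letters near the start and a CCAAT were found in 21 of the 30 (70.0%) and in 3.93% of all genes. None of these words contains another, and a match describes the sequence only. Of the 7 genes with an unadjusted p below 0.05, 6 had a window and 5 of these held the CHR letters near the start, as did 18 of the other 24.

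**Figure D3:**
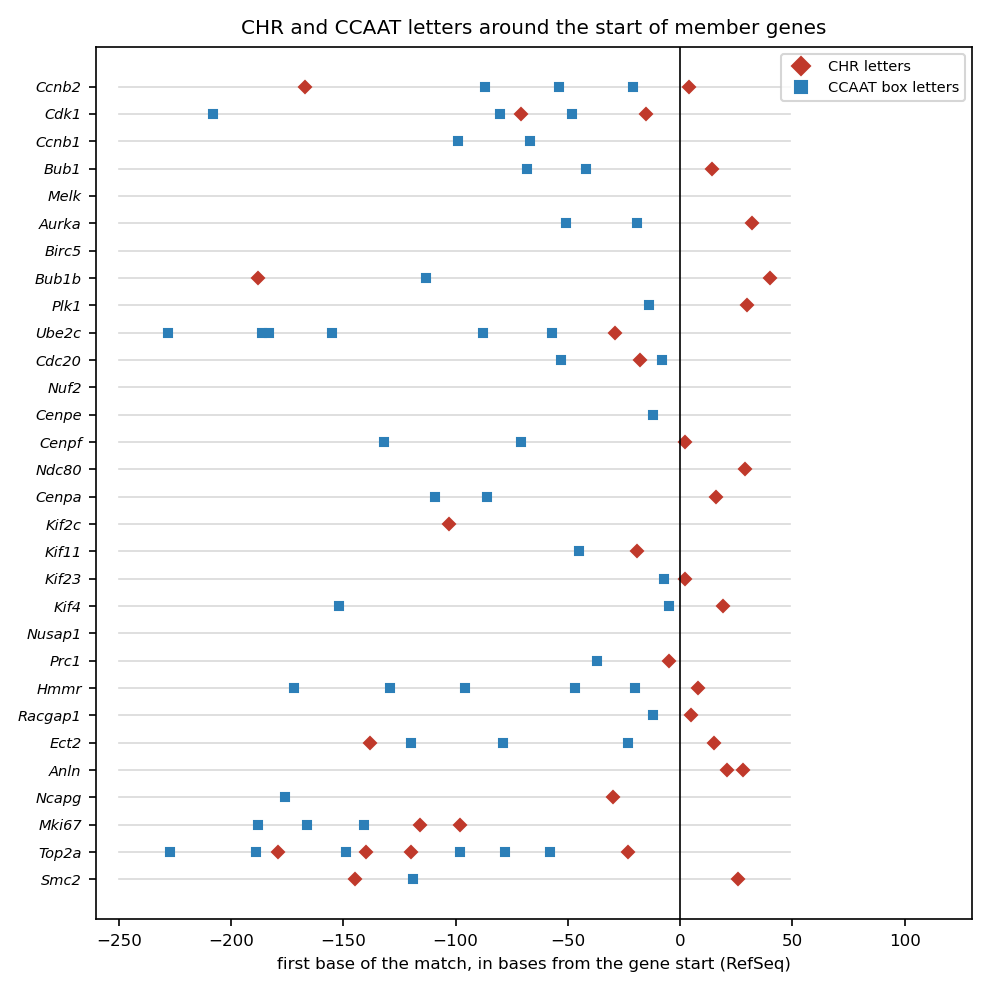
First base of each match to the CHR letters (diamonds) and to CCAAT (squares) on either strand, in bases from the RefSeq gene start (x axis), for the 30 genes with a promoter window (rows, 1 window per gene). The diamonds gather around the start, within 100 bases before to 50 after it in 23 genes, and most squares lie upstream.

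The 120 bases before the start are given for the genes described library by library further on, except Ncapg and Ccna2, which had no window in the case of Ccna2. They let the genes with the largest and the smallest differences be compared. Capitals mark the CHR letters and the CCAAT letters, which appear as their reverse complement where the match is on the other strand. Sequences run 5′ to 3′ along the gene.
Ccnb2 (chr9:70421555-70421674, - strand): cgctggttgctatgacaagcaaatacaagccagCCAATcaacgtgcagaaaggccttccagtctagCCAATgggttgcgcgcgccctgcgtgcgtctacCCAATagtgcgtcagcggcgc
Ube2c (chr2:164769809-164769928, + strand): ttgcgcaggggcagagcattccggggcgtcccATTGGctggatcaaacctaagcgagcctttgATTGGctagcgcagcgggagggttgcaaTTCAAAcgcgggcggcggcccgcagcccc
Top2a (chr11:99024190-99024309, - strand): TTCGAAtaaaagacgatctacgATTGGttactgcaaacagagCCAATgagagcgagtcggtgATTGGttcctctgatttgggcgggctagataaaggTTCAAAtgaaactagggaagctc
Mki67 (chr7:135716380-135716499, - strand): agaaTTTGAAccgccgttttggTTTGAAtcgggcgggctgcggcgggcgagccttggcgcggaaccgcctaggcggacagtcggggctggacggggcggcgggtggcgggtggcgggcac
Racgap1 (chr15:99651657-99651776, - strand): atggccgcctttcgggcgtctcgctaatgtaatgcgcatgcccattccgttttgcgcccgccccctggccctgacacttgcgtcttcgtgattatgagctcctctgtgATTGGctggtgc
Nusap1 (chr2:119618178-119618297, + strand): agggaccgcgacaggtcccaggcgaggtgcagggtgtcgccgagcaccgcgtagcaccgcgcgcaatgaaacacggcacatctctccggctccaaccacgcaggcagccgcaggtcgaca
Cdk1 (chr10:69352913-69353032, - strand): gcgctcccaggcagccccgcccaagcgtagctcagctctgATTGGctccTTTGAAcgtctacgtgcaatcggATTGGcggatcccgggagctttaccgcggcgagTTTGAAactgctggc
Ccnb1 (chr13:100786487-100786606, - strand): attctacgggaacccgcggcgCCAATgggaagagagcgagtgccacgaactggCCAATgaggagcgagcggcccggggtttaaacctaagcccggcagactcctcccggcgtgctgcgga
Plk1 (chr7:122159315-122159434, + strand): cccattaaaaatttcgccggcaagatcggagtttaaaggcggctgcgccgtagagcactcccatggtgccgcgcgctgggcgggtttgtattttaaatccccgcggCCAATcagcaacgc
Kif4 (chrX:100625945-100626064, + strand): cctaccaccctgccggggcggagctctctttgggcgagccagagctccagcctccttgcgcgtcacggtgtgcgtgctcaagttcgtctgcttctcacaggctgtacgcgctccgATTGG
Ccnb2 carries 3 CCAAT words in this stretch, and of its 2 CHR words 1 lies further upstream and the other begins 4 bases past the first base of the gene. The CHR letters of Racgap1 begin 5 bases past it, those of Kif4 19 bases and those of Plk1 30 bases. In these 120 bases Cdk1 and Top2a each carry 2 CHR words and at least 2 CCAAT words, and 2 more CHR words of Top2a lie further upstream. The window of Ccnb1 holds 2 CCAAT words and no CHR letters, and that of Nusap1 holds neither, so genes with and without the words are found among those with the largest differences.

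Among the cyclins, CDK1 and its activators, all 6 genes had log2 fold changes above 0, with a median of 0.30, and 2 had an unadjusted p below 0.05. Ccnb2, a B-type cyclin and a partner of CDK1, showed the largest difference of the 38 by its own counts. Its normalized counts were 52.7, 54.8, 35.5 and 51.9 in floxed 1 to 4. They were 91.6, 74.4, 90.1 and 67.7 in Adipoq-F2-KO 1 to 4. No Adipoq-F2-KO library overlapped the controls, and floxed 3 was the lowest of all 8. The log2 fold change was 0.69 (SE 0.23, DESeq2 unadjusted p = 0.00225, adjusted p = 0.742), which ranks its p the 47th of all tested genes. Reads that fit both Ccnb2 and its pseudogene Ccnb2-ps could have been split between them. Ccnb2-ps ran the other way, with raw counts of 12, 29, 14 and 25 in floxed 1 to 4 and 6, 16, 7 and 6 in Adipoq-F2-KO 1 to 4. With its counts added to those of Ccnb2, an alternative chosen after seeing the data, normalized counts were 60.0, 70.1, 64.8 and 71.2 in the floxed controls and 96.3, 84.3, 104 and 79.0 in the Adipoq-F2-KO mice. The groups still did not overlap, but the log2 fold change was 0.44 (SE 0.20, DESeq2 unadjusted p = 0.0234, adjusted p = 0.9998), the 3rd of the 38. Ccna2, the cyclin A of somatic cells, had normalized counts of 122, 132, 178 and 128 in the floxed controls. It had 211, 176, 138 and 189.9 in the Adipoq-F2-KO mice, where 2 of 4 libraries exceeded every control and Adipoq-F2-KO 3 did not exceed floxed 3. Its log2 fold change was 0.39 (SE 0.19, DESeq2 unadjusted p = 0.0391, adjusted p = 0.9998). Its exons overlap those of Exosc9 on the opposite strand, and those of Plk1, Cdc20, Kif20a and Prc1 also overlap genes on the other strand.

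Cdk1, the kinase these cyclins activate, had normalized counts of 44.8, 46.4, 60.6 and 40.2 in floxed 1 to 4. The Adipoq-F2-KO libraries were close to each other at 61.6, 60.1, 60.1 and 56.4, and floxed 3 lay among them while the other controls lay below. Its log2 fold change was 0.36 (SE 0.23, DESeq2 unadjusted p = 0.119, adjusted p = 0.9998). Ccnb1, the other B-type cyclin, was one of the least counted genes, with 3 to 33 raw counts per library. Its normalized counts were 13.3, 13.7, 14.6 and 24.8 in the floxed controls and 22.9, 20.5, 6.01 and 18.8 in the Adipoq-F2-KO mice. The groups overlapped, with Adipoq-F2-KO 3 the lowest of all 8 libraries and the other 3 within the control range, and the log2 fold change of 0.10 (SE 0.47, DESeq2 unadjusted p = 0.839, adjusted p = 0.9998) had a 95% interval from -0.82 to 1.01 and turned in sign in 4 of 17 alternative fits, each leaving out 1 library. A difference as large as that of Ccnb2 lies within this interval and was not detectable at this depth. Cdc25c, the phosphatase that activates CDK1, was counted less still, at 2 to 25 raw counts, with a log2 fold change of 0.25 (SE 0.56). Foxm1, a transcription factor of G2 genes, had one of 0.18 (SE 0.23).

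Ube2c, the ubiquitin-conjugating enzyme that works with the APC/C, had normalized counts of 53.9, 46.4, 50.2 and 52.6 in floxed 1 to 4, a spread of only 6.52% (coefficient of variation). It had 72.6, 79.4, 96.1 and 52.6 in Adipoq-F2-KO 1 to 4. Of these, 3 lay above every control and Adipoq-F2-KO 4 lay within their range. The log2 fold change was 0.57 (SE 0.23, DESeq2 unadjusted p = 0.0148, adjusted p = 0.9998). Cdc20, the coactivator that brings substrates to the APC/C, varied more among the controls, from 16.7 in floxed 3 to 53.4 in floxed 4. Its log2 fold change was 0.37 (SE 0.32) with an unadjusted p of 0.248 (DESeq2). The rest of the same machinery was mixed in direction. Of 17 APC/C subunits and partners outside the 38 genes, 6 had a log2 fold change above 0 and 11 below, the median was -0.02, and none had an unadjusted p below 0.05. The value farthest from 0 was that of Ube2s, which extends ubiquitin chains on APC/C substrates, at -0.54 (SE 0.37). Fzr1, the coactivator that takes over from Cdc20 late in mitosis, had a log2 fold change of -0.0076, and Fbxo5, an inhibitor of the APC/C, had one of 0.45 (SE 0.34).

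All 5 chromosome structure genes had log2 fold changes above 0, with a median of 0.33. Top2a, topoisomerase II alpha, which untangles sister DNA, had normalized counts of 431, 377, 491 and 440.4 in floxed 1 to 4. It had 635, 522, 527 and 478 in Adipoq-F2-KO 1 to 4. Adipoq-F2-KO 1 was the highest and Adipoq-F2-KO 4 was just below floxed 3, the highest control. The log2 fold change was 0.33 (SE 0.14, DESeq2 unadjusted p = 0.0164, adjusted p = 0.9998), from 435 ± 46.9 in the floxed controls to 540.2 ± 66.8 in the Adipoq-F2-KO mice (mean ± SD, n = 4 each). Mki67, which encodes the proliferation marker Ki-67 on the surface of mitotic chromosomes, had 569, 585, 795 and 578 in the floxed controls. The Adipoq-F2-KO values were 819, 667, 827 and 899. Floxed 3 stood about level with the Adipoq-F2-KO mice, and Adipoq-F2-KO 2 was the only one of the 4 below it. Its log2 fold change was 0.35 (SE 0.15, DESeq2 unadjusted p = 0.0198, adjusted p = 0.9998). Without floxed 3 it was 0.47 with an adjusted p of 0.0314 (DESeq2), the only one of the 38 to pass in that fit, in which 104 of all tested genes passed.

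Smc2, Smc4 and Ncapg encode condensin subunits. Ncapg had normalized counts of 44.2, 48.5, 50.2 and 48.0 in the floxed controls. It had 59.2, 68.2, 62.1 and 56.4 in the Adipoq-F2-KO mice, all above the controls, with a log2 fold change of 0.39 (SE 0.22, DESeq2 unadjusted p = 0.0769, adjusted p = 0.9998). Its exons overlap those of Lcorl on the opposite strand, and whether reads were counted by strand is not given in the sources used here. Smc4 had a log2 fold change of 0.22 (SE 0.18) and Smc2 one of 0.23 (SE 0.17), and neither had an unadjusted p below 0.05. Adipoq-F2-KO 2, at 384 normalized counts for Smc4, lay near the lowest control while the lowest of the other 3 Adipoq-F2-KO libraries had 564.

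Cytokinesis genes split the cell after the chromosomes have parted. Racgap1, which forms the centralspindlin complex with Kif23 at the cleavage site, had normalized counts of 82.4, 71.7, 77.4 and 88.2 in floxed 1 to 4. It had 111, 115, 98.1 and 94.0 in Adipoq-F2-KO 1 to 4. The lowest Adipoq-F2-KO library lay above the highest control by less than the controls varied among themselves. The log2 fold change was 0.41 (SE 0.18, DESeq2 unadjusted p = 0.0266, adjusted p = 0.9998). Ect2, the exchange factor that centralspindlin recruits to activate RhoA, had one of 0.29 (SE 0.19), and Anln, the scaffold anillin, one of 0.10 (SE 0.19). Nusap1, a microtubule-bundling spindle protein, had 58.8, 55.9, 35.5 and 35.6 in the floxed controls. It had 90.0, 68.8, 58.1 and 62.0 in the Adipoq-F2-KO mice, of which Adipoq-F2-KO 3 lay within the control range. Its log2 fold change of 0.57 (SE 0.28, DESeq2 unadjusted p = 0.0397, adjusted p = 0.9998) was among the 3 largest, with a wide 95% interval from 0.03 to 1.12, and part of its exons overlap Oip5 on the other strand. The other spindle genes, Tpx2, Prc1, Dlgap5 and Hmmr, which nucleate, bundle or stabilize spindle microtubules, had log2 fold changes of 0.18, 0.16, 0.15 and 0.10, none with an unadjusted p below 0.05.

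**Figure D4:**
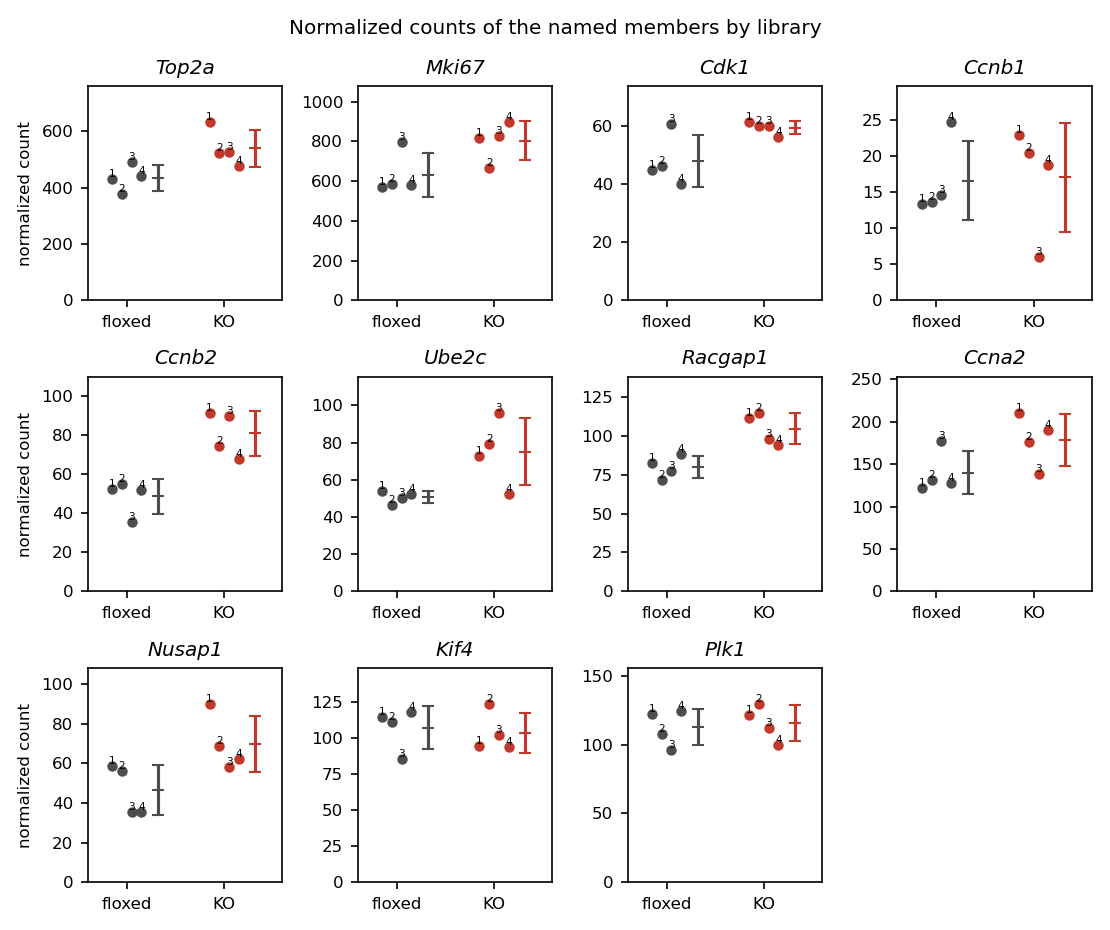
Normalized counts (y axis, from 0) of 11 of the 12 genes given library by library (Ncapg is not drawn), with 1 numbered point per library and the mean ± SD of 4 libraries beside each group. In Ccnb2 and Racgap1 the 2 groups do not overlap, while in Ccnb1, Plk1 and Kif4 3 of the 4 Adipoq-F2-KO libraries lie within the control range.

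The mitotic kinases and checkpoint genes had a median log2 fold change of 0.22, and none of the 7 had an unadjusted p below 0.05. Plk1, the Polo-like kinase needed for spindle formation and mitotic exit, had normalized counts of 122, 108, 96.2 and 125 in floxed 1 to 4. It had 122, 129.6, 112 and 99.6 in Adipoq-F2-KO 1 to 4, of which Adipoq-F2-KO 2 lay just above the controls and the other 3 within their range. Its log2 fold change was 0.04 (SE 0.18, DESeq2 unadjusted p = 0.809, adjusted p = 0.9998), with a 95% interval from -0.30 to 0.39, and its sign turned in 3 of 18 alternative fits. Aurka, the Aurora kinase of the spindle poles, had a log2 fold change of 0.22 (SE 0.24). Aurkb, the catalytic subunit of the chromosomal passenger complex, had 0.39 (SE 0.30), and Birc5 (survivin), of the same complex, had 0.19 (SE 0.23). The spindle checkpoint kinases Bub1 and Bub1b stood at 0.31 (SE 0.28) and 0.14 (SE 0.21), and Melk, a kinase of dividing and progenitor cells, at 0.26 (SE 0.31).

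Centromere and kinetochore genes had a median log2 fold change of 0.16, as did the spindle assembly genes, and none of the 5 had an unadjusted p below 0.05. Cenpa, the centromeric histone, had 0.08 (SE 0.21), with Adipoq-F2-KO values that all lay inside the control range. Cenpe, a kinetochore motor, had 0.18 (SE 0.22) and Cenpf, a large kinetochore protein, 0.16 (SE 0.17). Ndc80 and Nuf2, partners in the complex that grips microtubules, had 0.16 (SE 0.37) and 0.33 (SE 0.32), and for both Adipoq-F2-KO 4 was the highest library. Among the kinesins the median was 0.25. Kif11, which pushes the spindle poles apart, had 0.25 (SE 0.18). Kif20a and Kif23, both motors of the central spindle, had 0.33 (SE 0.27) and 0.16 (SE 0.24), and Kif2c, which takes microtubules apart at centromeres, had 0.34 (SE 0.39). Kif4, a motor bound to chromosome arms, was the one gene below 0. It had normalized counts of 114, 111, 85.7 and 118 in the floxed controls and 94.7, 124, 102 and 94.0 in the Adipoq-F2-KO mice. The groups overlapped, and the log2 fold change was -0.06 (SE 0.19, DESeq2 unadjusted p = 0.756, adjusted p = 0.9998), on an X-linked gene whose exons overlap Pdzd11 on the opposite strand.

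Per kilobase of exon, the level of the 38 genes in the floxed controls ran from 1.74 normalized counts for Cdc25c to 86.5 for Smc4, with a median of 13.7, below the median of 33.5 over all tested genes. Smc4 was followed by Mki67 at 62.8, Plk1 at 51.2 and Top2a at 48.3. The mean levels of Plk1 and Top2a differed by less than their spread over the 4 controls. Ccnb2, at 31.8, was about level with Ccna2, at 34.3, and Ccnb1 was at 3.94. Plk1, among the highest of the 38 in level, was among the lowest in fold change. The precision of the 38 genes was like that of other genes, with a median standard error of 0.23 on the log2 scale, against 0.24 over all tested genes.

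Other cell cycle genes were counted in the same way. Of 73 tested genes of G2 and mitosis outside the 38, 61 had a log2 fold change above 0, the median was 0.19, and 5 were higher and none lower at an unadjusted p below 0.05, beside 1.65% and 1.38% of all tested genes. The lowest p was that of Ccnf, cyclin F, with a log2 fold change of 0.61 (SE 0.22, DESeq2 unadjusted p = 0.00596, adjusted p = 0.9998). The others were Tacc3, a spindle protein (0.59), Shcbp1, a protein of the midbody (0.81), Arhgap11a, a regulator of RhoA (0.29), and Ttk, a checkpoint kinase (0.64). None of them had an adjusted p below 0.05. The sum of this list did not separate the groups, at 8212, 7526, 7436 and 7416 normalized counts in floxed 1 to 4. It was 7927, 8034, 8161 and 7885 in Adipoq-F2-KO 1 to 4, a ratio of 1.05, and floxed 1 was the highest of all 8. Of 59 tested genes of S phase and DNA replication, 51 were above 0, with a median of 0.20, and 4 were higher and none lower at an unadjusted p below 0.05. Both counts, 5 and 4, fell to 1 under epithelial scaling and to 1 with a replicate block. Ccne2, a cyclin of the entry into S phase, had the largest difference of that list, 0.93 (SE 0.28, DESeq2 unadjusted p = 0.000763, adjusted p = 0.487), and the others with an unadjusted p below 0.05 were Mcm4 (0.40), Clspn (0.56) and Dnmt1 (0.28). The summed S phase genes were 5074, 5267, 5179.8 and 4883 normalized counts in floxed 1 to 4. They were 5537, 5537, 6020.4 and 5965 in Adipoq-F2-KO 1 to 4, all above the controls. Relative to that sum, the 38 genes had a ratio of 1.06 between the groups, with overlapping libraries.

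Genes that act earlier in the cycle, or on the promoters of the 38 genes, had smaller medians. Of 15 tested G1 cyclins, pocket proteins and CDK inhibitors, 12 were above 0, with a median of 0.14, and 2 had an unadjusted p below 0.05, both higher: the inhibitor Cdkn1b, at 0.39 (SE 0.15), and cyclin D1, Ccnd1, at 0.57 (SE 0.27). These act in opposite directions on entry into the cycle. Of 14 tested subunits of MuvB, B-Myb, DREAM and NF-Y, 11 were above 0, with a median of 0.09, and none had an unadjusted p below 0.05. Mybl2, which encodes B-Myb and is itself made in dividing cells, had a log2 fold change of -0.25 (SE 0.32), and Nfya, the DNA-contacting subunit of NF-Y, one of -0.22 (SE 0.13). Lin54 was not analysed here.

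Markers of the cell types in the mucosa were read beside these values. The sum of 13 crypt stem and progenitor markers had a ratio of 1.01 between the groups, with a median log2 fold change of -0.03 and 6 of the 12 tested above 0. The epithelial sum had a ratio of 1.03 and the villus enterocyte sum one of 1.01, both with overlapping libraries. Per 1000 epithelial counts, the 38 genes gave 32.7, 31.6, 29.5 and 28.6 in floxed 1 to 4. They gave 35.5, 33.6, 36.5 and 36.2 in Adipoq-F2-KO 1 to 4, again with every Adipoq-F2-KO library above every control and a ratio of 1.16. Per 1000 crypt marker counts, they gave 934, 1027, 1171 and 1305 in floxed 1 to 4. They gave 1278, 1374, 1250.3 and 1264 in Adipoq-F2-KO 1 to 4, also a ratio of 1.16, but only Adipoq-F2-KO 2 lay above every control. The 38 genes were thus separated between the groups against the epithelial markers and not against the crypt markers. Markers of other cells differed in direction. All 8 tested B cell markers were above 0, with a median log2 fold change of 1.17, none with an unadjusted p below 0.05, and their sum was 37.6, 477, 129.7 and 25.5 in the floxed controls. It was 182, 693, 206 and 487 in the Adipoq-F2-KO mice. All 8 macrophage markers were above 0 as well (sums 145 to 468 in the floxed controls and 309 to 588 in the Adipoq-F2-KO mice), none with an unadjusted p below 0.05, and 8 of 10 T and intraepithelial lymphocyte markers were above 0, with a median of 0.23. Of these Cd2 alone had an unadjusted p below 0.05, at 1.35 (SE 0.60), and the ratio of their sums was 1.07. All 10 smooth muscle markers were below 0, with a median of -0.94 and none with an unadjusted p below 0.05, beside the high sum of floxed 3. Both tested adipocyte markers and 5 of the 7 goblet markers were below 0 as well, while all 3 tested plasma cell markers, all 4 tested endothelial markers, 4 of 5 Paneth markers and 3 of 5 tested fibroblast markers were above 0. Of the 5 tested markers of germinal center B cells, which divide rapidly, 3 were above 0, with a median log2 fold change of 0.03, and their marker Mef2b, which was not tested, had at most 9 raw counts in any library. With a B cell score as a covariate, 34 of the 38 genes were above 0, with a median of 0.31, and 5 were higher at an unadjusted p below 0.05, beside 0.694% of all tested genes. Mki67, Ccna2 and Nusap1 were not among them (DESeq2 unadjusted p = 0.0945, 0.196 and 0.158). Which cells carried the difference was not tested.

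**Figure D5:**
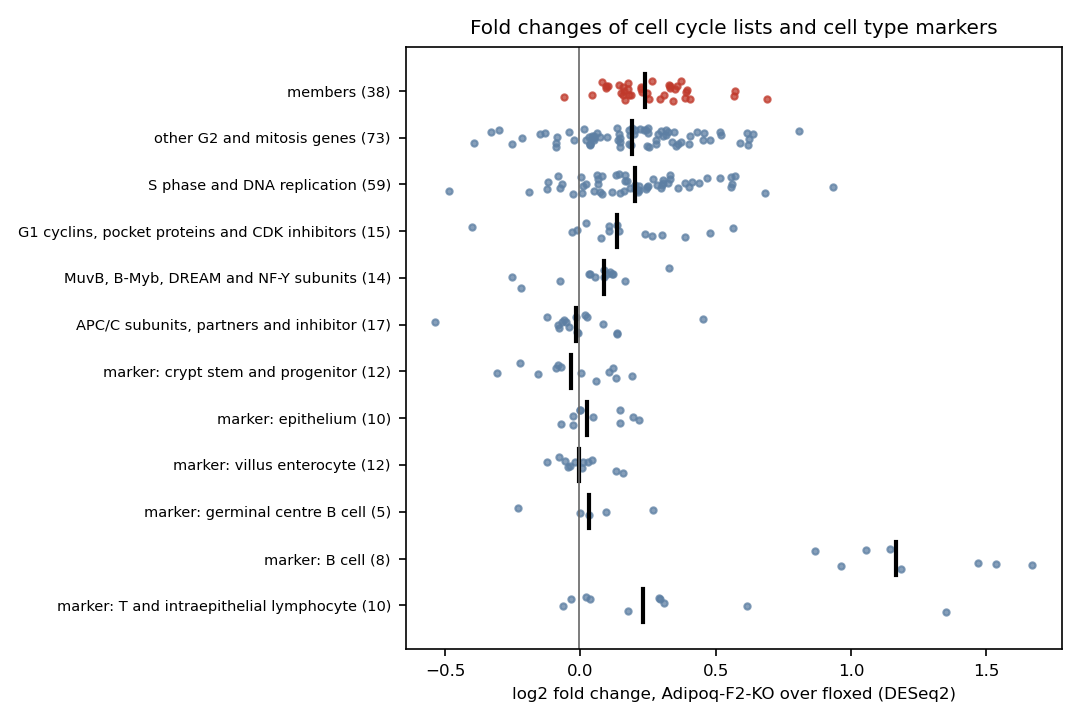
Log2 fold change of every tested gene (points) in the 38 genes, 5 other cell cycle lists and 6 marker lists (rows, number of tested genes in brackets), with a bar at each median and a gray line at the median of all tested genes (-0.01). The medians are 0.24 for the 38 genes, 0.19 for the other G2 and mitosis genes, 0.20 for the S phase genes, 0.14 for the G1 genes, 0.23 for the T lymphocyte markers and -0.03 for the crypt markers, and all 8 B cell markers lie above 0.

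The count of genes past the threshold depended on the processing more than the direction did. Over 18 alternative fits, between 31 and 37 of the 38 genes were above 0, the 31 being out of 32 genes that passed a filter of 50 counts, and the median lay between 0.15 and 0.31. Ccnb2 had an unadjusted p below 0.05 in all 18, Top2a in 15, Ube2c in 13, Racgap1 and Nusap1 in 11 each, Mki67 in 10 and Ccna2 in 8. Scaling the libraries to their epithelial markers moved the median of all tested genes to -0.10 and left 29.8% of them above 0, with 0.407% higher at an unadjusted p below 0.05 and 314 genes lower. In that fit 35 of the 38 genes were above 0, their median was 0.15 and only Ccnb2 kept an unadjusted p below 0.05. In the 5 libraries of at least 10000000 counts (3 floxed, 2 Adipoq-F2-KO), 33 of the 38 genes were above 0, with a median of 0.30, and 16 had both Adipoq-F2-KO libraries above all 3 controls, beside 11.2% of all tested genes.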

How the data were processed

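RNA from jejunal mucosal scrapings of 4 floxed control and 4 Adipoq-F2-KO mice was sequenced after poly-A selection with a stranded kit. The authors trimmed reads with Trimmomatic, aligned them with STAR and deposited raw counts per gene from featureCounts. The submitters' processing notes name GRCm38 (mm10), but 2147 identifiers belong to later releases. Versions, annotation release and strand setting are not given in the sources used here. The samples were numbered within each genotype, and p-values measure the spread between them.

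Symbols came from GENCODE M21 (52073 of 56980 identifiers, all 38 genes). The counts were fitted with DESeq2 1.42.0 (R 4.3.3, genotype as the only term, two-sided Wald test, Benjamini-Hochberg adjustment over 15986 genes), and with edgeR 4.0.16 and limma-voom 3.58.1 as alternatives. Settings were tested on simulated data with larger log2 fold changes than any of the 38 genes had. How they perform for differences as small as these was not tested. Each gene is named with its role. Values by library are given for Mki67, Top2a, Ccnb1 and Cdk1, genes with an unadjusted p below 0.05 and the 2 lowest fold changes, and Ncapg and the extra gene Ttk were added after their values were seen. From other lists, up to 4 genes with the smallest p below 0.05 are named, and others were singled out after seeing values. A germinal center B cell marker is not reported here. The genes and lists were chosen with earlier results of these data known. Other alternatives were TMM and epithelial scaling, low-count filters, a replicate block, marker covariates, deep libraries only and leaving out each library.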

Additional observations from a re-analysis of the deposited data

Results flagged for a closer look

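A library stood far from the other 3 of its group (past the critical value of Dixon's test) in 11 of 106 groups checked. Chance gives about 1 in 20 for independent groups. These groups share the same libraries, so an excess over chance was not tested. In the floxed controls, floxed 3 was low for Ccnb2, at 35.5 normalized counts against 51.9 to 54.8 in the others, and high for Mki67, at 795 against 569 to 585. Floxed 3 was also high in summed smooth muscle markers, at 30479 against 3763 to 8128, and in summed adipocyte markers, at 579 against 10.1 to 19.0. Floxed 4 was high for Prc1, at 119 against 83.6 to 88.5, and for Ccnb1, at 24.8 against 13.3 to 14.6. Among the Adipoq-F2-KO mice, Adipoq-F2-KO 2 was low for Smc4, at 384 against 564 to 581, for Cenpe, at 124 against 192 to 203, and in summed villus enterocyte markers, at 856911 against 938371 to 946545. Adipoq-F2-KO 4 was low for Dlgap5, at 48.9 against 56.8 to 58.3, and high in summed Paneth cell markers, at 10996 against 5830.4 to 6682. The part of floxed 3's other tissue in its values was not tested.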

How the results depend on the processing

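In the 18 alternatives, 31 to 37 of the 38 genes were above 0 (the 31 of 32 tested) and none was lower at an unadjusted p below 0.05, while counts of calls moved. The counts that follow are, in order, of the 38 genes, of the other G2 and mitosis genes and of the S phase genes higher at an unadjusted p below 0.05 (7, 5 and 4 as reported). edgeR gave 7 S phase genes, beside 1.63% of all tested genes higher. With limma-voom there were 9 other G2 and mitosis genes and 7 S phase genes, beside 2.16%. Epithelial scaling gave 1, 1 and 1, beside 0.407%, with a median of 0.15. In that fit 1 of the 38 did not overlap, beside 0.307% of all tested genes. The filter of 50 counts gave 3 other G2 and mitosis genes, beside 1.91%, and the smooth muscle covariate 2 S phase genes, beside 1.84%. The B cell covariate gave 3 other G2 and mitosis genes and 1 S phase gene, beside 0.694%, and a median of 0.31. The deep libraries gave 8, 2 and 1, beside 2.56%, and a median of 0.30. In them 16 of the 38 did not overlap, beside 11.2% of all tested genes. Leaving out 1 library gave 2 to 7, 2 to 6 and 1 to 5, beside 0.926% to 4.38% of all tested genes, with 3 to 8 of the 38 not overlapping, beside 1.88% to 4.54%, and 0 to 1 with an adjusted p below 0.05 (Mki67, without floxed 3). The highest of these counts and shares came without floxed 3. The lowest count of the 38 came without floxed 2 or without Adipoq-F2-KO 1. The sign turned for Plk1 under epithelial scaling (-0.052), and leaving out 1 library gave it -0.023 to 0.097, below 0 without floxed 3 or Adipoq-F2-KO 2. Leaving out 1 library gave Ccnb1 -0.081 to 0.37, below 0 without floxed 1, floxed 2, Adipoq-F2-KO 1 or Adipoq-F2-KO 2. Deviations of same-numbered samples had correlations of 0.54, 0.29, 0.01 and -0.42, and those of all other pairs ran from -0.47 to 0.52. So few pairs, with such a spread, cannot tell whether the numbers pair the samples. The count documents named in the labels carry other numbers, and the 3 pairs that share one of those had correlations of -0.35, -0.12 and 0.05. A replicate block gave 4, 1 and 1, beside 1.61% of all tested genes, with a median of 0.21. The cause of these shifts was not tested. Low counts limit Ccnb1 and Cdc25c most.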
